A study of Mus musculus with 16 samples.

Results

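Hematopoietic stem cells (HSCs) copy their DNA when they leave quiescence, and the transcripts described here are those of 49 genes of DNA replication and S phase. The members are a list of gene names, and all 49 were found among the 46078 genes of the count table and among the 13661 genes that passed the filter on low counts. By role they fell into origin licensing (5 genes), the replicative helicase and its loading (12), primase and polymerases (9), clamp, clamp loader, RPA and flap processing (11), nucleotide synthesis (5), chromatin and histone mRNA (4) and fork protection (3).

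Replication starts at origins that the origin recognition complex, CDC6 and CDT1 license in G1 by loading the MCM helicase, while geminin binds CDT1 and blocks loading again in the same cycle. In S phase CDC45 and the GINS complex turn MCM into the active helicase, primase and the polymerases copy the strands with the PCNA clamp, and ribonucleotide reductase, thymidylate synthase, thymidine kinase and dUTPase keep the nucleotide pools supplied. Transcripts of many of these genes are driven by E2F factors near the start of S phase and are low in quiescent cells, the state of most adult HSCs.

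HSCs were gated as LSK CD48- CD150+ cells from cKit-enriched bone marrow and sorted by MAC-1, the integrin of CD11B (*Itgam*) and CD18 (*Itgb2*). The populations were SS (steady state, labelled untreated) MAC-1- (n = 3) and MAC-1low (n = 3), and MAC-1- (n = 3), MAC-1low (n = 4) and MAC-1+ (n = 3) cells of mice that had been given 900 cGy and 8000 LSK cells 4 weeks earlier. All samples are labelled as wild type with the strain B6.SJL, and no age is given. No label ties a sample to an animal or a pool of animals, so each p-value measures the spread between these samples only, which may be partly technical. The text on transplantation also stands on the labels of the SS samples, and the SS groups were taken from their titles and the treatment field. Between 400 and 600 HSCs gave each SMART-Seq library, which carries no molecular identifiers.

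Total counts ran from 13781278 to 28580658 per sample, and 14533 to 17576 genes had at least 1 count. The common biological coefficient of variation was 1.13. *Itgam* was higher in all 4 week MAC-1+ than in all 4 week MAC-1- samples, and a 4 week MAC-1low sample, replicate 4, had 3 counts of it. Its RNA did not separate the MAC-1low samples from the others at 4 weeks. MAC-1low replicate 2 (4.36 CPM) was above MAC-1+ replicate 3 (3.80). MAC-1- replicate 2 (1.78) was above MAC-1low replicates 1, 3 and 4 (0.368, 1.08 and 0.112). Summed markers of other cells also moved with the sort. Megakaryocyte markers were at 4729 to 7468 CPM in 4 week MAC-1- samples and at 160 to 225 in 4 week MAC-1+ samples, which was lower without overlap for 8 of 8 markers, with *Gp1bb* and *Gata1* at 0 in every MAC-1+ sample. Neutrophil markers were at 23.1 to 69.7 CPM in 4 week MAC-1- and at 164, 950 and 7255 in 4 week MAC-1+ samples, with *Ly6g* at no more than 0.123 CPM in any sample. HSC markers were at 691 to 890 CPM in 4 week MAC-1- samples and at 2271 to 3457 in 4 week MAC-1+ samples, with 5 of 8 called higher. T and NK cell markers were at 323 to 644 CPM in 4 week MAC-1- and at no more than 176 in 4 week MAC-1+ samples, with 1 of 3 tested called lower. Nearly all of these sums was *Nkg7*, with means of 447 CPM in 4 week MAC-1- and 78.5 CPM in 4 week MAC-1+ samples. No other gene of that list had a mean above 0.705 CPM in either population, and *Klrb1c* was at means of 0 and 0.0209 CPM. Erythroid markers were at 27.2 to 37.0 CPM in 4 week MAC-1- and at 91.5 to 198 in 4 week MAC-1+ samples, with 1 of 7 tested called higher. Sums of monocyte and B cell markers overlapped between these populations. Of all genes tested, 11.5% were lower and 10.2% higher without overlap in 4 week MAC-1+ than in MAC-1- samples, and 2.06% and 1.19% were called.

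All levels here are reads per 1e+06 counts scaled with TMM factors (CPM), and levels of different genes are compared only per kilobase of exon. Per kilobase, *Rpa3* (554 CPM per kb over the 16 samples), *Tipin* (277), *Pcna* (222), *Rfc4* (178), *Gmnn* (133) and *Dut* (106) stood highest among the members. *Orc1* (1.35), *Mcm10* (0.504), *Fen1* (0.273) and *Chaf1a* (0.176) stood lowest, and *Orc1*, *Fen1* and *Chaf1a* had 0 counts in 3, 8 and 10 of the 16 samples. A count of 0 allows up to 3 counts in a library, which is 0.112 to 0.220 CPM, for counting error alone. Reads of some members cannot be told apart from those of a neighbour on the other strand, because how reads were assigned to strands is not given. In GENCODE M21, 84.2% of the exon bases of *Fen1*, 67.3% of *Gins2* and 52.5% of *Chaf1a* are shared with another gene, against 15.1% or less in every other member. *Pcna* and *Tyms* have named pseudogenes that could share reads with them.

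Summed over all 49 genes, the level was highest in 4 week MAC-1- HSCs and lowest in 4 week MAC-1+ HSCs. The 4 week MAC-1- samples summed to 7518, 7335 and 6970 CPM and the 4 week MAC-1+ samples to 4110, 3512 and 3395, with means of 7274 ± 279 (SD, n = 3) and 3673 ± 384 (SD, n = 3) and a ratio of 1.98. The 4 week MAC-1low samples lay between them without overlap, at 4892, 5273, 4926 and 5314 CPM. At steady state MAC-1- samples summed to 4647, 4630 and 4359 CPM and MAC-1low samples to 5434, 5656 and 4697, so that both populations came close at 4647 and 4697. In order of the means, 4 week MAC-1+ (3673), SS MAC-1- (4545), 4 week MAC-1low (5101), SS MAC-1low (5262) and 4 week MAC-1- (7274) followed each other, and only the neighbours 4 week MAC-1low and SS MAC-1low overlapped. No p-value is attached to a sum over the genes. Without *Rpa3*, *Pcna* and *Tipin*, which hold a large part of the sum, the 4 week MAC-1- samples were still highest, at 4553 to 4763 CPM, and the 4 week MAC-1+ samples lowest, at 2341 to 2782. In bulk RNA, fewer cells that express a gene and less RNA of it per cell cannot be told apart.

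**Figure D1:**
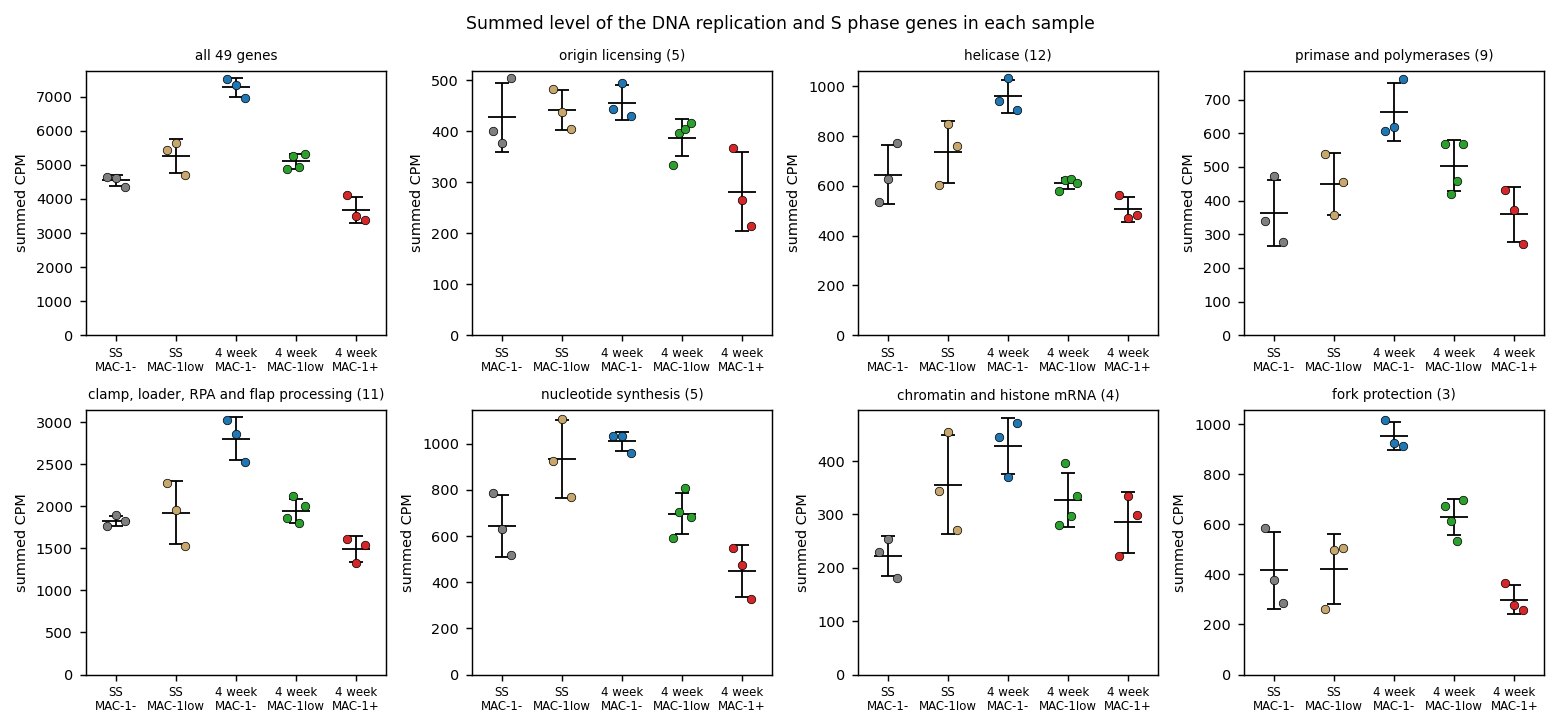
Summed level (CPM) of all 49 genes and of each role group in every sample, by population; points are samples, and the long and short bars are the mean and the SD (n = 3, or 4 for 4 week MAC-1low). For all 49 genes the 4 week MAC-1- samples sit between 6970 and 7518 and the 4 week MAC-1+ samples between 3395 and 4110, without overlap.

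Gene by gene, 27 of the 49 members (55.1%) had their highest mean in 4 week MAC-1- HSCs, as did 17.4% of the 13661 genes tested. The lowest mean stood in 4 week MAC-1+ HSCs for 22 members (44.9%, against 22.7% of all genes tested) and in SS MAC-1- HSCs for 16 (32.7%, against 23.5%). SS MAC-1low HSCs held the highest mean of 14 members (28.6%, against 22.1%). The mean was lower at each step from 4 week MAC-1- over MAC-1low to MAC-1+ for 32 members (65.3%), a pattern that 23% of all genes tested had. The heat map of all members shows this order in most rows, with the widest scatter between replicates in the rows of low genes such as *Cdc45*, *Gins3* and *Clspn*.

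**Figure D2:**
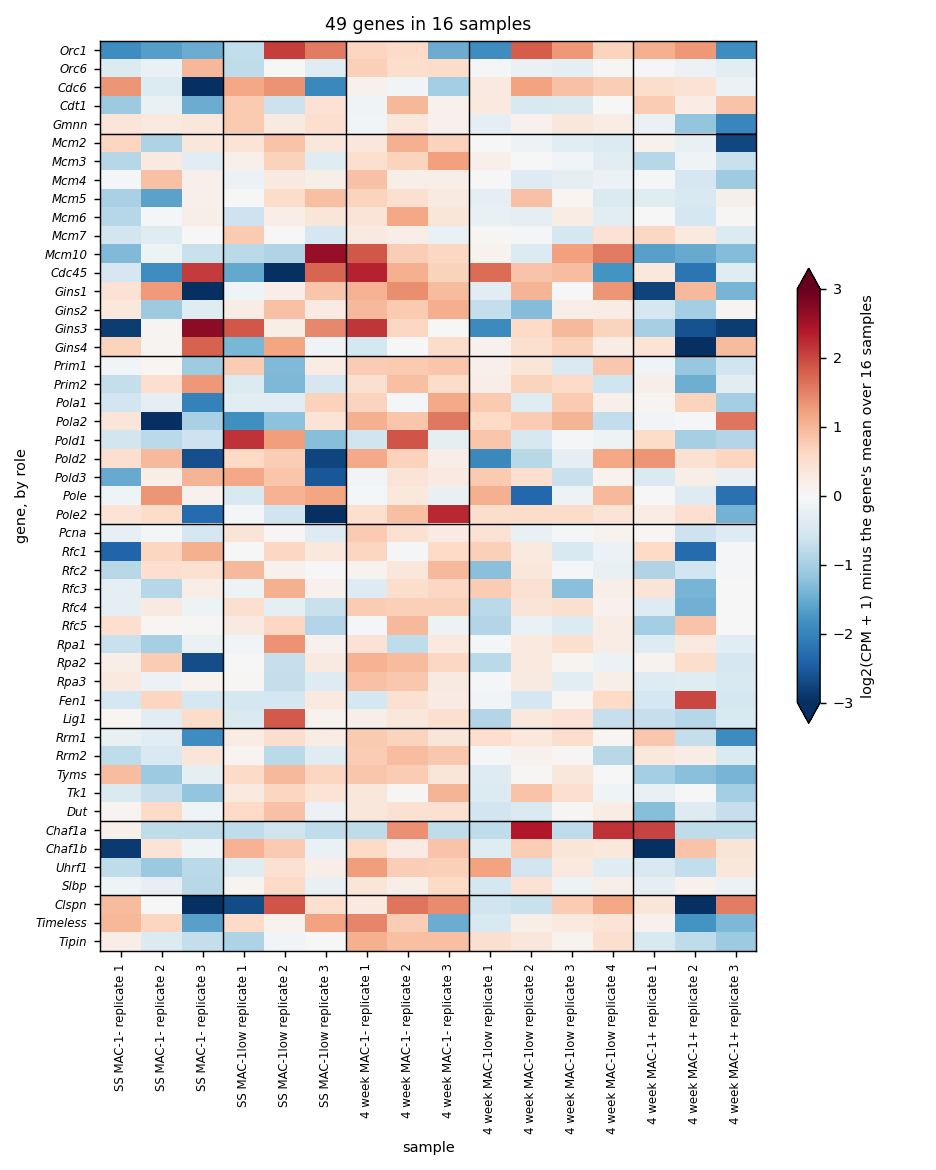
Log2(CPM + 1) of each of the 49 genes in each of the 16 samples, minus the gene's mean over the samples, with genes in rows grouped by role and samples in columns grouped by population; red is above and blue below the mean, and the colours end at 3 on either side. The columns of the 4 week MAC-1- samples are mostly red, and those of 4 week MAC-1+ replicates 2 and 3 mostly blue.

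The main question was how MAC-1+ and MAC-1- HSCs differ 4 weeks after transplantation. Of the 49 members, 5 fell in MAC-1+ against MAC-1- HSCs (adjusted p below 0.1, edgeR's quasi-likelihood test with Benjamini-Hochberg adjustment over all genes tested), and none rose; 2.06% of all genes tested fell and 1.19% rose. They were *Tipin*, *Tyms*, *Rpa3*, *Dut* and *Mcm3*. At an unadjusted p below 0.05, 17 members were lower and 0 higher, against 7.06% and 6.3% of all genes tested. The samples of both populations did not overlap for 27 members, all lower in MAC-1+, against 11.5% lower and 10.2% higher of all genes. The fitted log2 fold change was below 0 for 41 members (47.3% of all genes), with a median of -0.80 and a range of -5.22 to 1.46, while the median over all genes tested was 0.07. Each 4 week MAC-1+ sample had a smaller sum than each 4 week MAC-1- sample. Replicate 1 had the lowest neutrophil markers of the MAC-1+ samples, 164 CPM, against 69.7 or less in 4 week MAC-1- samples. That replicate also had the highest sum of the members among the MAC-1+ samples, 4110 CPM. Summed megakaryocyte, neutrophil, HSC and erythroid markers and *Nkg7* moved with the same contrast at the values above, and their part in the result was not tested. With both MAC-1+ libraries richest in neutrophil markers (replicates 2 and 3) left out, a choice made after seeing the data, the count was 0 while the median was -0.68. That fit holds 1 MAC-1+ sample, which is assumed to vary like the samples of the other populations. The count was 3 without any 1 of SS MAC-1low replicate 1, 4 week MAC-1- replicates 1, 2 and 3, 4 week MAC-1low replicates 2 and 3 and MAC-1+ replicates 2 and 3, and 3 to 6 over all 16 samples left out in turn.

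**Figure D3:**
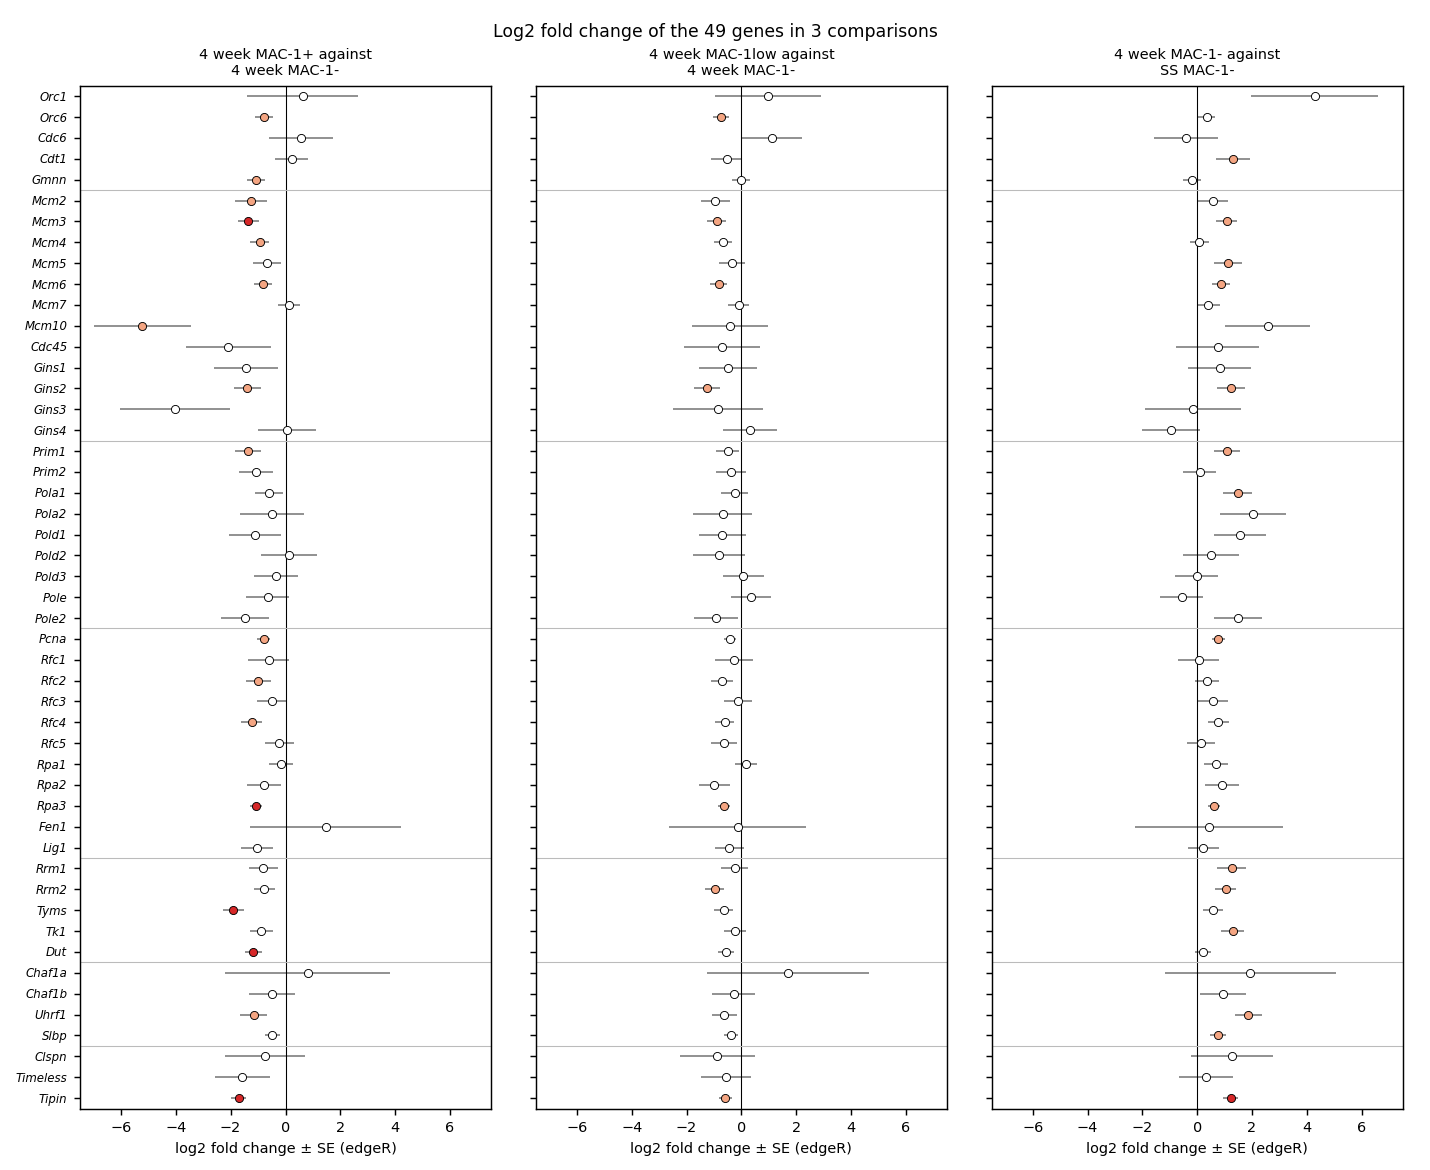
Log2 fold change of each of the 49 genes, ordered by role, at 4 weeks in MAC-1+ against MAC-1- (left) and MAC-1low against MAC-1- (middle), and in 4 week MAC-1- relative to SS MAC-1- (right), with bars of ± 1 SE (edgeR); dark red points have an adjusted p below 0.1, light red points an unadjusted p below 0.05 only, and white points neither. On the left, 41 of 49 points lie below 0 and 5 are dark red; on the right, 43 lie above 0 and 1 is dark red.

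The fork protection genes held the member with the smallest p-value. *Tipin* (ENSMUSG00000032397, chr9:64281581-64305424, plus strand, GRCm38) encodes a partner of TIMELESS that travels with the fork and helps to signal stalled replication. *Tipin* was at 541, 350.1 and 283 CPM in the SS MAC-1- samples, 244, 442 and 464 in SS MAC-1low, 974, 871 and 879.7 in 4 week MAC-1-, 657, 596, 500.4 and 657 in 4 week MAC-1low and 339, 274 and 220.4 in 4 week MAC-1+. All 4 week MAC-1- samples exceeded those of every other population, and each 4 week MAC-1+ sample was below each 4 week MAC-1low sample. *Tipin* fell in 4 week MAC-1+ against MAC-1- HSCs (log2 fold change -1.71, SE 0.27, adjusted p = 0.00397, edgeR) and rose in 4 week MAC-1- against SS MAC-1- HSCs (log2 fold change 1.22, SE 0.27, adjusted p = 0.0939, edgeR). Both comparisons share the 4 week MAC-1- samples, so they are not independent. The rise was not past the threshold in 14 of the 16 fits that left out 1 sample, all but those without SS MAC-1- replicate 1 or SS MAC-1low replicate 1. The fall was called in all 16, and with replicate 1 as the lone MAC-1+ sample the log2 fold change was -1.42 (adjusted p = 0.219, edgeR). *Timeless*, its partner, had group means of 5.84 to 17.8 CPM, and *Clspn*, which encodes the checkpoint mediator claspin, 11.2 to 27.0 CPM. Neither passed a test, with 4 week MAC-1+ against MAC-1- log2 fold changes of -1.57 ± 1.00 and -0.74 ± 1.47 (SE).

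**Figure D4:**
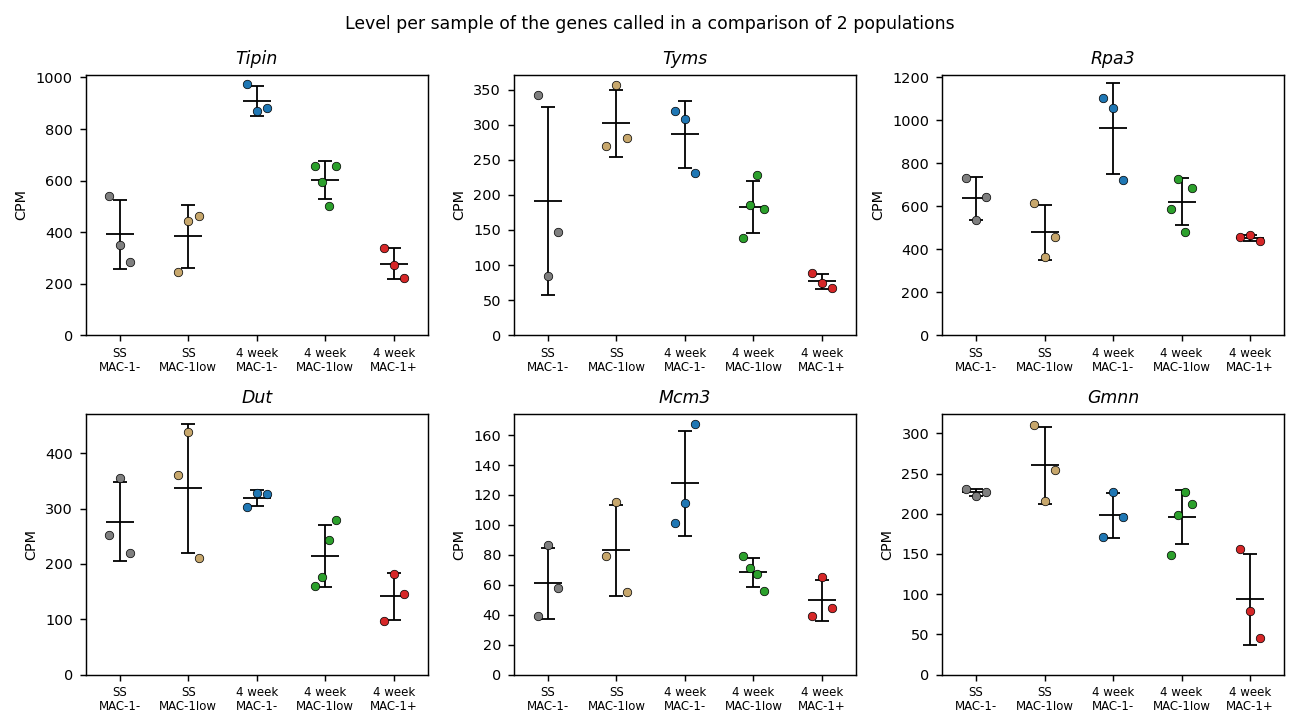
Level (CPM) in each sample of the 6 genes past the threshold in a comparison of 2 populations, by population; points are samples and bars the mean and SD (n = 3, or 4 for 4 week MAC-1low). *Tipin* in 4 week MAC-1- sits between 871 and 974 CPM, above all other samples, and *Tyms* in 4 week MAC-1+ between 67.4 and 88.4 CPM, below all other samples except the SS MAC-1- sample at 84.7, which lies among them.

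Nucleotide synthesis genes were lower in 4 week MAC-1+ than in MAC-1- HSCs for 5 of 5 members by fitted fold change (median -0.88), against 47.3% of all genes tested. Of these 5 genes, 2 passed the test, *Tyms* and *Dut* (2.06% of all genes fell). At 4 weeks the summed level of the 5 genes was 1011 ± 42.3 CPM (SD, n = 3) in MAC-1-, 697 ± 88.9 (SD, n = 4) in MAC-1low and 449 ± 112 (SD, n = 3) in MAC-1+ samples. *Tyms* (ENSMUSG00000025747, chr5:30058202-30073617, minus strand, GRCm38) encodes thymidylate synthase, which makes dTMP from dUMP. *Tyms* was at 342, 84.7 and 147 CPM in the SS MAC-1- samples, 269, 357 and 281 in SS MAC-1low, 319, 308 and 231 in 4 week MAC-1-, 138, 185, 228 and 179.8 in 4 week MAC-1low and 88.4, 74.5 and 67.4 in 4 week MAC-1+. All MAC-1+ samples lay below all other 4 week samples, while the SS MAC-1- samples spread from 84.7 to 342 CPM. *Tyms* fell in 4 week MAC-1+ against MAC-1- HSCs (log2 fold change -1.90, SE 0.39, adjusted p = 0.0186, edgeR). *Dut* (ENSMUSG00000027203, chr2:125247190-125258608, plus strand, GRCm38) encodes dUTPase, which removes dUTP and yields the dUMP that TYMS uses. *Dut* was at 253, 356 and 219 CPM in the SS MAC-1- samples, 362, 439.6 and 210.2 in SS MAC-1low, 304, 329 and 326 in 4 week MAC-1-, 161, 176, 244 and 279 in 4 week MAC-1low and 97, 181 and 146 in 4 week MAC-1+. The 4 week MAC-1- values were close together, above every 4 week MAC-1low and MAC-1+ value. *Dut* fell in MAC-1+ against MAC-1- HSCs (log2 fold change -1.18, SE 0.31, adjusted p = 0.0710, edgeR), a call lost in 9 of the 16 fits without 1 sample (SS MAC-1low replicate 1, each 4 week MAC-1- sample, 4 week MAC-1low replicates 2 and 3, and each MAC-1+ sample), and the alternatives gave adjusted p of 0.0164 to 0.216.

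*Tk1* encodes thymidine kinase, which salvages thymidine and is made mainly in S phase. *Tk1* was at 41.9, 34.7 and 24.4 CPM in the SS MAC-1- samples, 70.0, 89.2 and 76.7 in SS MAC-1low, 72, 58.6 and 116 in 4 week MAC-1-, 42.7, 103, 81.1 and 52.5 in 4 week MAC-1low and 48.9, 57.5 and 27.7 in 4 week MAC-1+. The SS MAC-1- samples were below all SS MAC-1low and 4 week MAC-1- samples. No test of *Tk1* passed the adjusted threshold (SS MAC-1low against MAC-1-: log2 fold change 1.22, SE 0.43, adjusted p = 0.513, edgeR; 4 week MAC-1- against SS MAC-1-: log2 fold change 1.29, SE 0.43, adjusted p = 0.357, edgeR). *Rrm2* encodes the small subunit of ribonucleotide reductase that limits its activity in S phase. *Rrm2* was at 42, 52 and 92.1 CPM in the SS MAC-1- samples, 75.2, 40.4 and 55.3 in SS MAC-1low, 121, 137 and 126 in 4 week MAC-1-, 69.6, 78.6, 73 and 39.7 in 4 week MAC-1low and 88.6, 83.5 and 52.7 in 4 week MAC-1+. Each 4 week MAC-1- sample exceeded all the others (4 week MAC-1low against MAC-1-, log2 fold change -0.97, SE 0.35, adjusted p = 0.553, edgeR). *Rrm1*, the large subunit, had group means from 81.3 CPM in SS MAC-1- to 195 CPM in 4 week MAC-1- samples, and its difference between these was 1.26 ± 0.53 on the log2 scale (SE; adjusted p = 0.440, edgeR).

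The helicase genes were the largest group. In 4 week MAC-1+ against MAC-1- HSCs 1 of the 12 fell (*Mcm3*), against 2.06% of all genes tested. At an unadjusted p below 0.05, 6 were lower (7.06% of all genes), and 9 were lower without overlap (11.5%). The median log2 fold change of the 12 was -1.31. Summed, they stood at 4 weeks at 961 ± 66.9 CPM (SD, n = 3) in MAC-1-, 612 ± 21.9 (SD, n = 4) in MAC-1low and 506 ± 49.9 (SD, n = 3) in MAC-1+ samples, and at 646 ± 119 and 738 ± 124 (SD, n = 3 each) in SS MAC-1- and SS MAC-1low samples. *Mcm3* (ENSMUSG00000041859, chr1:20802968-20820312, minus strand, GRCm38) encodes a subunit of the MCM2-7 ring. *Mcm3* was at 38.8, 86.4 and 57.5 CPM in the SS MAC-1- samples, 79.3, 115 and 54.9 in SS MAC-1low, 101, 115 and 168 in 4 week MAC-1-, 79, 70.9, 67.4 and 55.9 in 4 week MAC-1low and 39, 65.2 and 44.7 in 4 week MAC-1+. The 4 week MAC-1- samples were above every other 4 week sample. *Mcm3* fell in MAC-1+ against MAC-1- HSCs (log2 fold change -1.36, SE 0.38, adjusted p = 0.0939, edgeR), but 14 of the 16 fits without 1 sample lost the call, all but those without SS MAC-1- replicate 1 or 2, and the alternatives gave adjusted p of 0.00766 to 0.388.

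The other ring subunits passed no test in edgeR. *Mcm4* was at 77.4, 151 and 90.1 CPM in the SS MAC-1- samples, 72.2, 98.2 and 91.5 in SS MAC-1low, 151, 92.3 and 91.9 in 4 week MAC-1-, 81.3, 62.3, 66 and 71.4 in 4 week MAC-1low and 78.3, 57.5 and 38.2 in 4 week MAC-1+. *Mcm6* was at 76.4, 135 and 157 CPM in the SS MAC-1- samples, 90.8, 160.1 and 179.5 in SS MAC-1low, 181, 311 and 179 in 4 week MAC-1-, 119, 113, 161 and 111 in 4 week MAC-1low and 139, 96.7 and 144 in 4 week MAC-1+. Their 4 week MAC-1- samples did not overlap with the 4 week MAC-1low or MAC-1+ samples, and MAC-1+ against MAC-1- gave a log2 fold change of -0.95 (SE 0.35, adjusted p = 0.246, edgeR) for *Mcm4* and a log2 fold change of -0.82 (SE 0.34, adjusted p = 0.300, edgeR) for *Mcm6*. *Mcm5* was at 21.8, 13.8 and 49 CPM in the SS MAC-1- samples, 43.9, 64.8 and 83.2 in SS MAC-1low, 70.0, 61.6 and 53.3 in 4 week MAC-1-, 35.7, 81.7, 45.8 and 32 in 4 week MAC-1low and 33.8, 31.9 and 49.7 in 4 week MAC-1+. SS MAC-1- replicates 1 and 2 held the lowest values of *Mcm5*, and neither 4 week MAC-1- against SS MAC-1- (log2 fold change 1.13, SE 0.51, adjusted p = 0.463, edgeR) nor SS MAC-1low against SS MAC-1- (log2 fold change 1.18, SE 0.51, adjusted p = 0.521, edgeR) passed the threshold. *Mcm2* was at group means of 44.6 CPM (4 week MAC-1+) to 107 CPM (4 week MAC-1-). *Mcm7* had means of 69.8 CPM in 4 week MAC-1+ and 63.9 CPM in MAC-1- samples, with a log2 fold change of 0.13 ± 0.41 (SE; adjusted p = 0.960, edgeR). The difference between subunits was not itself tested.

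None of the helicase's partners passed a test in edgeR. *Gins2* encodes a subunit of GINS, and 67.3% of its exon bases are shared with *Gse1* on the other strand. *Gins2* was at 56.2, 20.5 and 34.8 CPM in the SS MAC-1- samples, 52.5, 83.5 and 53.8 in SS MAC-1low, 88.5, 77.7 and 97.1 in 4 week MAC-1-, 26.8, 17.6, 50.4 and 52.7 in 4 week MAC-1low and 31.6, 21.7 and 47.2 in 4 week MAC-1+. The 4 week MAC-1- samples were above all others except SS MAC-1low replicate 2, which lay among them. MAC-1+ against MAC-1- gave a log2 fold change of -1.39 (SE 0.51, adjusted p = 0.235, edgeR), and MAC-1low against MAC-1- a log2 fold change of -1.25 (SE 0.46, adjusted p = 0.562, edgeR). *Mcm10* encodes a factor that helps to start the assembled helicase. *Mcm10* was at 0.293, 1.89 and 1.03 CPM in the SS MAC-1- samples, 0.835, 0.727 and 18.7 in SS MAC-1low, 10.7, 4.36 and 3.99 in 4 week MAC-1-, 2.45, 1.42, 6.58 and 8.58 in 4 week MAC-1low and 0.0475, 0.126 and 0.316 in 4 week MAC-1+. Its MAC-1+ values rest on 1, 2 and 8 counts and are below those of every other sample except SS MAC-1- replicate 1, which lies among them. The fitted difference of MAC-1+ from MAC-1- (log2 fold change -5.22, SE 1.77, adjusted p = 0.187, edgeR) depends on the prior count at such depth and is no bound on the fold. *Gins3* was at 30.9, 10.1 and 6.22 CPM in 4 week MAC-1- and at 2.66, 0.188 and 0 in 4 week MAC-1+ samples (log2 fold change -4.04, SE 2.00, adjusted p = 0.403, edgeR). *Gins1*, *Gins4* and *Cdc45* had 4 week MAC-1+ against MAC-1- log2 fold changes of -1.45, 0.07 and -2.08 with SEs of 1.17, 1.05 and 1.56.

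E2F factors bind promoters of many replication genes, so the letters of E2F sites were searched in RefSeq promoter windows (GRCm38.p6, 250 bases before to 50 after a start site), and the windows of 4 MCM genes are printed to show them. The words were TTTCCCGC, TTTGGCGC, TTTCGCGC and TTTGCCGC on either strand, and overlapping matches were counted apart. Of the 40 members with a window, 16 (40%) held at least 1 word, against 2.61% of all 27025 genes with one; by window the shares were 34.8% of 46 and 2.26% of 32851. The holders were *Orc1*, *Cdc6*, *Cdt1*, *Mcm3*, *Mcm5*, *Mcm6*, *Mcm7*, *Gins3*, *Pola1*, *Pold1*, *Pold3*, *Pole2*, *Rfc3*, *Lig1*, *Uhrf1* and *Clspn*, and of the genes that passed a test *Mcm3* held a word, *Tyms*, *Rpa3* and *Dut* held none in their windows, and *Tipin* and *Gmnn*, without a window, were not searched. Capitals mark the matched words. The windows are chr1:20820263-20820562 (minus strand) for *Mcm3*, with words at 19 and 38 from the start site, chr8:75109259-75109558 (plus) for *Mcm5*, with overlapping words at -153 and -149, chr1:128359656-128359955 (minus) for *Mcm6*, with overlapping words at -110 and -106 and another at -47, and chr5:138171834-138172133 (minus) for *Mcm7*, with words at -165 and 16 in 1 of its 2 windows.
Mcm3: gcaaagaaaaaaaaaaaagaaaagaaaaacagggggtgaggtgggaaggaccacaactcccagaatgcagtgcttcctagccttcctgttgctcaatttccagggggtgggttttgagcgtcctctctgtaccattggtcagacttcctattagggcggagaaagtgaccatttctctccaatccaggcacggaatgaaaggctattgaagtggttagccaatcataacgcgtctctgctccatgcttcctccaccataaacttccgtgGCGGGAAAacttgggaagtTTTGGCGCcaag
Mcm5: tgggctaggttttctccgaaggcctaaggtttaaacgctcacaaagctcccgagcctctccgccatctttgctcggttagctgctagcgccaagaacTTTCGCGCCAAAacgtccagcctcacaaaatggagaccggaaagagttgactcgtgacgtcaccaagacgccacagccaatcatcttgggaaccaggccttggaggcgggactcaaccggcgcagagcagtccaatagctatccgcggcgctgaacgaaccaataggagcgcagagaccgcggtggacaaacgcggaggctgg
Mcm6: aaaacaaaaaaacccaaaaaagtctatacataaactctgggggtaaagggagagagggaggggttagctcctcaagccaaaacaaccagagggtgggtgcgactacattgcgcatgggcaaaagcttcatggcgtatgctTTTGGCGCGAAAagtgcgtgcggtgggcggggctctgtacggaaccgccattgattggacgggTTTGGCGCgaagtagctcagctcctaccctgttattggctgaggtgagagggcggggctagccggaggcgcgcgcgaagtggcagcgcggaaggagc
Mcm7: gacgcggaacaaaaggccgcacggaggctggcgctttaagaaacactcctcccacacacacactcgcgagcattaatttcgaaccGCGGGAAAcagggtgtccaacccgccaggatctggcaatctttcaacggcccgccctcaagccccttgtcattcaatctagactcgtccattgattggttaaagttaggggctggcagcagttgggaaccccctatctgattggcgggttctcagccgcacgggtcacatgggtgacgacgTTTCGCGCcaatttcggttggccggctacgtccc
A match is a description of letters and not of binding, and *Mcm3* and *Mcm7* both hold words while their 4 week MAC-1+ against MAC-1- differences were -1.36 and 0.13 on the log2 scale.

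Origin licensing genes were the group with the smallest shift between 4 week MAC-1- (456 ± 34.3 CPM summed, SD, n = 3) and SS MAC-1- samples (427 ± 67.7, SD, n = 3). In MAC-1+ samples they summed to 281 ± 78.1 CPM (SD, n = 3), a lower level that not all 5 genes shared. Relative to 4 week MAC-1- samples, *Gmnn* and *Orc6* were lower in MAC-1+ samples without overlap. *Orc1*, *Cdc6* and *Cdt1* had fitted log2 fold changes above 0 (0.63, 0.57 and 0.23, with SEs of 2.02, 1.16 and 0.60). The median over the 5 was 0.23, and none passed the adjusted threshold there. *Gmnn* (ENSMUSG00000006715, chr13:24751845-24761923, minus strand, GRCm38) encodes geminin, the inhibitor of CDT1. *Gmnn* was at 230.2, 222 and 227 CPM in the SS MAC-1- samples, 311, 216 and 254 in SS MAC-1low, 171, 227 and 196 in 4 week MAC-1-, 148, 198, 227 and 212 in 4 week MAC-1low and 156, 78.6 and 45.6 in 4 week MAC-1+. The MAC-1+ samples were lower than all samples except 4 week MAC-1low replicate 1, which lay under the highest of them. *Gmnn* fell in 4 week MAC-1+ against SS MAC-1- HSCs (log2 fold change -1.28, SE 0.34, adjusted p = 0.0882, edgeR), a call lost in 14 of the 16 fits without 1 sample, all but those without 4 week MAC-1low replicate 1 or MAC-1+ replicate 1. Against 4 week MAC-1- HSCs it gave a log2 fold change of -1.08 (SE 0.34, adjusted p = 0.146, edgeR). *Cdt1*, which geminin binds, had its highest mean, 35.0 CPM, in MAC-1+ samples. *Cdt1* was at 9.98, 19.1 and 7.23 CPM in the SS MAC-1- samples, 38.8, 13.8 and 30.3 in SS MAC-1low, 20.1, 45.2 and 24.2 in 4 week MAC-1-, 27.3, 16, 16.2 and 22.6 in 4 week MAC-1low and 38, 26.1 and 40.8 in 4 week MAC-1+. Its lowest values stood in SS MAC-1- replicates 1 and 3, and 4 week MAC-1+ against SS MAC-1- gave a log2 fold change of 1.53 (SE 0.61, adjusted p = 0.281, edgeR), without overlap.

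*Orc6* and *Orc1* encode subunits of the origin recognition complex. *Orc6* was at 102, 118 and 269 CPM in the SS MAC-1- samples, 79.7, 134 and 105 in SS MAC-1low, 223, 197 and 199 in 4 week MAC-1-, 129.6, 117, 111 and 138 in 4 week MAC-1low and 133, 120.4 and 107 in 4 week MAC-1+. *Orc6* was higher in each 4 week MAC-1- sample than in each other 4 week sample (MAC-1+ against MAC-1-, log2 fold change -0.78, SE 0.32, adjusted p = 0.299, edgeR; MAC-1low against MAC-1-, log2 fold change -0.73, SE 0.30, adjusted p = 0.609, edgeR), and 1 SS MAC-1- sample was higher still. *Orc1* was at 0, 0.157 and 0.308 CPM in the SS MAC-1- samples, 1.20, 14.4 and 9.80 in SS MAC-1low, 4.77, 4.44 and 0.302 in 4 week MAC-1-, 0, 11.9, 7.97 and 4.83 in 4 week MAC-1low and 6.69, 8.04 and 0 in 4 week MAC-1+. *Orc1* had 0, 3 and 6 counts in the SS MAC-1- samples, at or near the floor, and a fitted difference of SS MAC-1low from SS MAC-1- of a log2 fold change of 5.70 (SE 2.47, adjusted p = 0.521, edgeR) that depends on the prior count. *Cdc6*, the loader of MCM, ran from 0.103 to 59.3 CPM over the samples and passed no test.

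Primase and polymerase genes summed at 4 weeks to 662 ± 86.0 CPM (SD, n = 3) in MAC-1- against 359 ± 81.0 (SD, n = 3) in MAC-1+ samples, and to 363 ± 99.0 (SD, n = 3) in SS MAC-1- samples, and 0 of the 9 passed a test in edgeR. *Prim1* encodes the catalytic subunit of primase. *Prim1* was at 128, 141 and 64.2 CPM in the SS MAC-1- samples, 229, 53.1 and 158 in SS MAC-1low, 230.3, 234 and 241 in 4 week MAC-1-, 150.4, 174, 100.5 and 237 in 4 week MAC-1low and 126, 60.9 and 88.4 in 4 week MAC-1+. Its 4 week MAC-1- values were tight and above all MAC-1+ and SS MAC-1- values (log2 fold change -1.36, SE 0.47, adjusted p = 0.196, edgeR for MAC-1+ against MAC-1-; log2 fold change 1.08, SE 0.46, adjusted p = 0.447, edgeR for the same samples relative to SS MAC-1-). *Prim2* encodes the large primase subunit. *Prim2* was at 17.4, 41.2 and 72.3 CPM in the SS MAC-1- samples, 21.4, 10.7 and 20.0 in SS MAC-1low, 40.9, 55.3 and 43.2 in 4 week MAC-1-, 33.5, 46.4, 43.5 and 18.9 in 4 week MAC-1low and 33, 9.86 and 23.3 in 4 week MAC-1+. It was the member that was lower in SS MAC-1low than in SS MAC-1- samples at an unadjusted p below 0.05 (log2 fold change -1.33, SE 0.61, adjusted p = 0.532, edgeR), with overlap between both. *Pola1*, the catalytic subunit of polymerase alpha, had means of 59.0 CPM in SS MAC-1- and 163 CPM in 4 week MAC-1- samples (log2 fold change 1.47, SE 0.53, adjusted p = 0.377, edgeR). The other 6 genes of the group had log2 fold changes of -1.49 (*Pole2*) to 0.13 (*Pold2*) in 4 week MAC-1+ against MAC-1- HSCs.

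Of the clamp, clamp loader, RPA and flap processing genes, *Rpa3* passed the test (2.06% of all genes tested fell). In 4 week MAC-1+ against MAC-1- HSCs 10 of 11 had a fitted fold change below 0 (47.3% of all genes), with a median over the 11 of -0.77. *Rpa3* (ENSMUSG00000012483, chr6:8255936-8259173, minus strand, GRCm38) encodes the smallest subunit of RPA, which coats single-stranded DNA. *Rpa3* was at 732, 535 and 642 CPM in the SS MAC-1- samples, 614, 363 and 458 in SS MAC-1low, 1105, 1059 and 721 in 4 week MAC-1-, 588, 728, 481 and 683 in 4 week MAC-1low and 457, 465 and 438 in 4 week MAC-1+. The MAC-1+ values were close together and below every other 4 week sample and every SS MAC-1- sample. *Rpa3* fell in MAC-1+ against MAC-1- HSCs (log2 fold change -1.08, SE 0.22, adjusted p = 0.0186, edgeR). The other subunits passed no test in edgeR. *Rpa1* was at 39.4, 31.5 and 54.8 CPM in the SS MAC-1- samples, 59.5, 163 and 69.9 in SS MAC-1low, 85.6, 37.2 and 77.8 in 4 week MAC-1-, 60.6, 78.1, 88.7 and 74.7 in 4 week MAC-1low and 48.2, 78.6 and 51.2 in 4 week MAC-1+. *Rpa1*, the largest subunit, was higher in each SS MAC-1low than in each SS MAC-1- sample (log2 fold change 1.22, SE 0.44, adjusted p = 0.513, edgeR) and gave -0.17 ± 0.44 (SE) at 4 weeks between MAC-1+ and MAC-1-. *Rpa2* had its highest mean, 102 CPM, in 4 week MAC-1- and means of 51.6 to 59.5 CPM in the other populations, and was lower without overlap in MAC-1+ than in MAC-1- samples at 4 weeks (-0.77 ± 0.62, SE).

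*Pcna* encodes the sliding clamp that holds the polymerases on DNA. *Pcna* was at 437, 493 and 359 CPM in the SS MAC-1- samples, 673, 532 and 393 in SS MAC-1low, 887, 708 and 607 in 4 week MAC-1-, 697, 438, 499 and 550.4 in 4 week MAC-1low and 533, 334 and 396 in 4 week MAC-1+. All 4 week MAC-1- samples exceeded all MAC-1+ and all SS MAC-1- samples. MAC-1+ against MAC-1- gave a log2 fold change of -0.80 (SE 0.24, adjusted p = 0.129, edgeR) and 4 week MAC-1- against SS MAC-1- a log2 fold change of 0.77 (SE 0.24, adjusted p = 0.308, edgeR), both outside the threshold. *Rfc4* encodes a subunit of the clamp loader, and 12.7% of its exon bases are shared with *Eif4a2* on the other strand. *Rfc4* was at 211, 307 and 229 CPM in the SS MAC-1- samples, 353, 210.3 and 158 in SS MAC-1low, 432, 416 and 416 in 4 week MAC-1-, 143, 331, 355 and 278 in 4 week MAC-1low and 194, 92.8 and 249 in 4 week MAC-1+. The 4 week MAC-1- samples were close together and above every other sample (log2 fold change -1.24, SE 0.38, adjusted p = 0.142, edgeR for MAC-1+ against MAC-1-). *Rfc2* was also lower in MAC-1+ at an unadjusted p below 0.05 (log2 fold change -0.99, SE 0.44, adjusted p = 0.348, edgeR), while *Rfc1*, *Rfc3* and *Rfc5* were at -0.61, -0.49 and -0.22. *Lig1* encodes the ligase that joins Okazaki fragments. *Lig1* was at 39.6, 30.4 and 55.8 CPM in the SS MAC-1- samples, 28.1, 138 and 40.9 in SS MAC-1low, 43, 48.6 and 54.5 in 4 week MAC-1-, 20.3, 47.3, 51.6 and 23.3 in 4 week MAC-1low and 23.1, 20.7 and 27.5 in 4 week MAC-1+. Its value in SS MAC-1low replicate 2 stood far above all others, and MAC-1+ against MAC-1- gave a log2 fold change of -1.04 (SE 0.58, adjusted p = 0.468, edgeR), without overlap. In 4 week MAC-1low against SS MAC-1low HSCs *Lig1* was at -0.96 (adjusted p = 0.624, edgeR), and without that library at 0.03. *Fen1*, the flap endonuclease, had at most 4.77 CPM in any sample.

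Among the chromatin and histone mRNA genes, *Uhrf1*, which encodes a protein that brings DNA methylation to newly copied DNA, stood out at steady state. *Uhrf1* was at 25.2, 19.5 and 24.4 CPM in the SS MAC-1- samples, 33.6, 60.5 and 50.3 in SS MAC-1low, 106, 73.6 and 72.3 in 4 week MAC-1-, 102, 28.7, 53.9 and 33.9 in 4 week MAC-1low and 31.3, 25.9 and 55.1 in 4 week MAC-1+. The SS MAC-1- samples were below every other sample. 4 week MAC-1- against SS MAC-1- gave a log2 fold change of 1.87 (SE 0.51, adjusted p = 0.218, edgeR), SS MAC-1low against SS MAC-1- a log2 fold change of 1.07 (SE 0.50, adjusted p = 0.532, edgeR) and 4 week MAC-1+ against MAC-1- a log2 fold change of -1.16 (SE 0.50, adjusted p = 0.319, edgeR), none past the threshold. *Slbp*, whose product binds histone mRNA, ran from a mean of 169 CPM in SS MAC-1- to 287 CPM in 4 week MAC-1- samples (log2 fold change 0.77, SE 0.28, adjusted p = 0.387, edgeR). *Chaf1b* and *Chaf1a* encode subunits of the chromatin assembly factor CAF-1. *Chaf1b* had group means of 29.8 to 58.8 CPM, and *Chaf1a* was at 0 counts in 10 samples and at most at 7.94 CPM.

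The steps from 4 week MAC-1- over MAC-1low to MAC-1+ were also tested one by one. In MAC-1low against MAC-1- HSCs 0 of the 49 members were called by edgeR (0.278% of all genes tested were), 7 were lower at an unadjusted p below 0.05 (3.18% of all genes) and 0 higher (4.08%), 12 were lower and 1 higher without overlap (5.53% and 5.23%), and 42 had a fitted fold change below 0 (47.6% of all genes), with a median of -0.54 against 0.05 over all genes. The 7 were *Orc6*, *Mcm3*, *Mcm6*, *Gins2*, *Rpa3*, *Rrm2* and *Tipin*. DESeq2 and limma-voom called 0 and 3 members there. Shares of all genes tested are given for edgeR only, here and below. In MAC-1+ against MAC-1low HSCs edgeR called 0 members and 0% of all genes, while 5 members were lower and 0 higher at an unadjusted p below 0.05 (4.61% and 2.24% of all genes), 4 were lower and 0 higher without overlap (4.48% and 3.75%) and the median was -0.38 against 0.00 over all genes. They were *Gmnn*, *Mcm10*, *Rpa3*, *Tyms* and *Tipin*, with a log2 fold change of -1.12 (SE 0.25, adjusted p = 0.438, edgeR) for *Tipin* and a log2 fold change of -1.25 (SE 0.36, adjusted p = 0.535, edgeR) for *Tyms*. DESeq2 and limma-voom called 4 and 0 members. These comparisons share samples with each other and with that of MAC-1+ and MAC-1-.

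**Figure D5:**
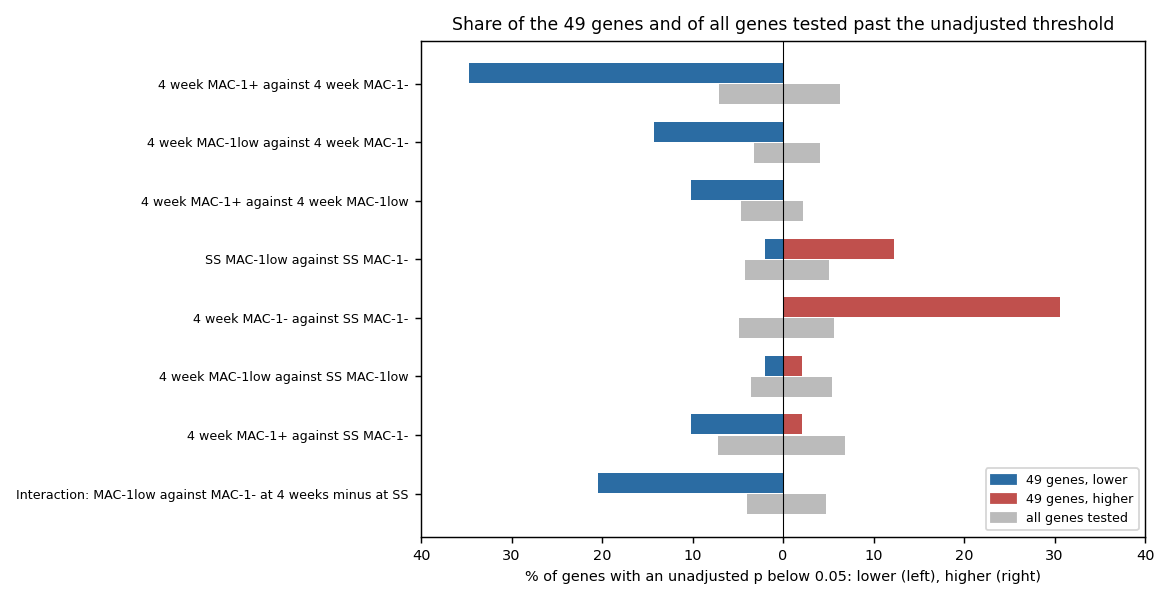
Share (%) of the 49 genes (coloured) and of all 13661 genes tested (grey) with an unadjusted p below 0.05, lower to the left and higher to the right, in each comparison. The widest bars of the 49 genes are those lower in 4 week MAC-1+ against MAC-1- (17 genes) and those higher in 4 week MAC-1- against SS MAC-1- (15 genes).

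At steady state MAC-1low HSCs were compared with MAC-1- HSCs. There edgeR called 0 members (0.0146% of all genes tested), 6 were higher at an unadjusted p below 0.05 (5.09% of all genes) and 1 lower (4.26%), and the median log2 fold change was 0.29 against 0.00 over all genes. The higher 6 were *Orc1*, *Mcm5*, *Pold1*, *Rpa1*, *Tk1* and *Uhrf1*. Of the 49, 5 were higher and 0 lower without overlap (5.95% and 5.38% of all genes). DESeq2 and limma-voom called 3 and 0 members.

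Transplantation was compared with steady state within each level of MAC-1. In 4 week MAC-1- against SS MAC-1- HSCs *Tipin* was the 1 member that rose (0.212% of all genes tested rose and 0.22% fell), 15 members were higher at an unadjusted p below 0.05 and 0 lower (5.59% and 4.86% of all genes), 43 had a fitted fold change above 0 (48.1%), 17 were higher and 0 lower without overlap (9.24% and 7.4%) and the median was 0.76 against -0.03 over all genes. The 15 were spread over all role groups, with 4 helicase genes (*Mcm3*, *Mcm5*, *Mcm6* and *Gins2*), 3 nucleotide synthesis genes (*Rrm1*, *Rrm2* and *Tk1*) and 2 each of the polymerase, clamp and chromatin groups. Megakaryocyte markers stood at 713 to 1146 CPM in SS MAC-1- and at 4729 to 7468 CPM in 4 week MAC-1- samples, with 1 of 8 called higher. HSC markers stood at 1521 to 1763 CPM in SS MAC-1- and at 691 to 890 CPM in 4 week MAC-1- samples, with 3 of 8 called lower and 6 lower without overlap. Sums of neutrophil, monocyte, B cell and erythroid markers were also lower without overlap in 4 week MAC-1- samples, and the part of these markers in the result was not tested. In 4 week MAC-1low against SS MAC-1low HSCs edgeR called 0 members (0.0439% of all genes), *Tipin* was higher (log2 fold change 0.65, SE 0.25, adjusted p = 0.495, edgeR) and *Dut* lower (log2 fold change -0.65, SE 0.28, adjusted p = 0.544, edgeR) at an unadjusted p below 0.05 (5.37% and 3.51% of all genes), 2 were higher and 2 lower without overlap (5.44% and 4.98%), and the median was -0.18. DESeq2 and limma-voom called 0 and 0.

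In 4 week MAC-1+ against SS MAC-1- HSCs the members went both ways, as did all genes tested. *Gmnn* was the 1 member that fell and none rose (1.59% and 0.776% of all genes tested), 5 members were lower (*Gmnn*, *Mcm4*, *Rpa3*, *Tyms* and *Dut*) and *Cdt1* higher at an unadjusted p below 0.05, against 7.21% and 6.8% of all genes, 4 were lower and 2 higher without overlap (8.62% and 8.36%), and the median was -0.08. *Tyms* gave a log2 fold change of -1.32 (SE 0.38, adjusted p = 0.123, edgeR) and *Dut* a log2 fold change of -0.97 (SE 0.31, adjusted p = 0.169, edgeR). The summed level in MAC-1+ samples lay below that of SS MAC-1- samples (3395 to 4110 against 4359 to 4647 CPM). A fitted fold change above 0 was found for 22 of the 49 members, a smaller share than the 50.6% of all genes. Both counts without overlap were also below the shares of all genes.

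Whether MAC-1low and MAC-1- HSCs differ in another way at 4 weeks than at steady state was tested as an interaction. edgeR called 0 members (0.0586% of all genes tested), 10 were lower at an unadjusted p below 0.05 and 0 higher (3.95% and 4.78% of all genes), 43 were below 0 (49% of all genes) and the median was -0.85 against 0.03 over all genes. The smallest p-value was that of *Gins2* (log2 fold change -2.02, SE 0.68, adjusted p = 0.445, edgeR), followed by *Mcm3* (log2 fold change -1.35, SE 0.52, adjusted p = 0.484, edgeR) and *Tyms* (log2 fold change -1.31, SE 0.51, adjusted p = 0.488, edgeR). DESeq2 and limma-voom called 1 and 0. A joint F test over all populations called 3 members, *Tipin* (adjusted p = 0.0167, edgeR), *Rpa3* (0.0700) and *Tyms* (0.0805), against 2.22% of all genes tested, and 12 members had an unadjusted p below 0.05 (24.5%, against 13.8% of all genes). The count was 1 without any 1 of SS MAC-1low replicates 2 and 3, 4 week MAC-1- replicates 1 and 2, 4 week MAC-1low replicate 4 and MAC-1+ replicates 2 and 3. The joint call of *Tyms* was lost in 12 of the 16 fits without 1 sample, all but those without an SS MAC-1- sample or 4 week MAC-1low replicate 1, and its adjusted p ran from 0.00139 to 0.383 over the alternatives. That of *Rpa3* was lost in 8 of the 16, the 7 above and the fit without MAC-1+ replicate 1 (adjusted p of 0.00213 to 0.238 over the alternatives), and that of *Tipin* in 0.

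Other genes of the pathway were read beside the members, from lists of replication genes outside the 49 (40 genes in the table, all tested) and of mitosis genes (20). In 4 week MAC-1+ against MAC-1- HSCs 2 of the 40 fell and 0 rose (2.06% and 1.19% of all genes tested), with 7 lower and 1 higher at an unadjusted p below 0.05 (7.06% and 6.3%) and a median of -0.63. *Dctpp1*, which encodes a dCTP pyrophosphatase, was at means of 302 and 101 CPM in MAC-1- and MAC-1+ samples (log2 fold change -1.58 ± 0.26, SE, adjusted p = 0.00519, edgeR), and *Rnaseh2b*, of the enzyme that removes ribonucleotides from DNA, at 226 and 97.0 CPM (-1.22 ± 0.33, SE, adjusted p = 0.0791, edgeR). The mitosis genes had 0 called and 4 of 20 lower at an unadjusted p below 0.05 (7.06% of all genes), with a median of -0.62. At steady state 0 were called and 9 of 20 were higher in MAC-1low at an unadjusted p below 0.05 (5.09% of all genes), with a median of 1.25 and sums of 942 ± 237 (SD, n = 3) in MAC-1- and 2040 ± 671 CPM (SD, n = 3) in MAC-1low samples. In 4 week MAC-1- against SS MAC-1- HSCs 0 were called and 9 of the 20 were higher at an unadjusted p below 0.05 (5.59% of all genes), with a median of 1.29.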

How the data were processed

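RNA of sorted HSCs was sequenced in 16 samples of 5 populations. The authors deposited 1 table of raw counts, whole reads per gene and sample, obtained by STAR alignment within nf-core's RNA-seq workflow. Which program counted the reads, with what strand setting, build and annotation, is not given in the sources used here. Titles gave each sample's group, and each column was matched to 1 sample by its description. SMART-Seq v4 carries no molecular identifiers, so PCR copies count as reads and intervals and floors cover counting error only. Totals ran from 13781278 to 28580658 counts per sample.

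With edgeR 4.0.16 in R 4.3.3, TMM factors, the default filter on low counts and a robust quasi-likelihood fit were used, with 1 mean per population over all 16 samples. Adjusted p are Benjamini-Hochberg values over the 13661 genes tested, and a gene was called at an adjusted p below 0.1, the authors' threshold without their limit on the fold change. There were 9 tests, which are 7 comparisons of 2 populations, an interaction and a joint F test. Standard errors were derived from the fold change and its F statistic. The scripts were first tested on simulated data. Alternatives were DESeq2 1.42.0, the authors' tool; limma-voom (limma 3.58.1) with sample weights; DESeq2 size factors in edgeR; no filter; a filter of at least 50 counts in 3 samples; only the groups compared; detected genes per sample as a covariate; a block by replicate number; and each sample left out in turn. Another alternative was added after the data were seen, the fit without both MAC-1+ libraries richest in neutrophil markers. matplotlib 3.10.9 in Python 3.11.15 drew the plots.

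Members, role groups, marker lists and other lists were chosen with earlier results of these data known. Values in every sample are given for members called in any test, for the 15 with the smallest p-value in 4 week MAC-1+ against MAC-1- and for the 5 with the smallest in each other test; values of *Gins3* were added after they were seen. Places and exon lengths come from a match of gene identifiers to GENCODE M21 (GRCm38), which is not stated to be the authors' annotation, and promoter windows from RefSeq (GRCm38.p6), found for 40 of the 49 members. No label states whether samples with the same replicate number are paired, and the main fits treat all samples as unpaired.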

Additional observations from a re-analysis of the deposited data

Results flagged for a closer look

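*Mcm6* in 4 week MAC-1low replicate 3, at 161 CPM, stood apart from the other samples of its population, which were at 119, 113 and 111 CPM. Its gap to the nearest sample was 0.850 of the whole range, above Dixon's critical value for 4 samples, which chance passes in about 1 of 20 groups. With many genes looked at, some such gaps arise by chance alone. All 4 values were below those of the 4 week MAC-1- samples. Among these, *Mcm6* in replicate 2 (311 CPM, against 181 and 179) and *Mcm4* in replicate 1 (151 CPM, against 92.3 and 91.9) also stood apart.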

How the results depend on the processing

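The counts of members called in each comparison moved with the tool and the samples, and the cause was not tested. For DESeq2 and limma-voom the share of all genes called is not given. Their counts therefore do not show whether the members or genes at large were called more often. DESeq2 called 12 members in 4 week MAC-1+ against MAC-1- (5 in edgeR), 4 in MAC-1+ against MAC-1low (0), 3 in SS MAC-1low against MAC-1- (0), 6 in 4 week MAC-1- against SS MAC-1- (1), 5 in 4 week MAC-1+ against SS MAC-1- (1), 1 in the interaction (0) and 11 in the joint test (3). limma-voom called 10 in 4 week MAC-1+ against MAC-1- and 3 in MAC-1low against MAC-1- (0). For 4 week MAC-1- and for MAC-1+ relative to SS MAC-1- the count was 0 with DESeq2 size factors, with detected genes per sample as a covariate and with only the groups compared. Without a filter it was 2 in MAC-1+ against SS MAC-1- and 5 in the joint test, and with the stricter filter 2 in MAC-1+ against SS MAC-1-. The covariate left 3 in MAC-1+ against MAC-1- and 1 in the joint test, and only the groups compared left 3 in MAC-1+ against MAC-1-. The fit without MAC-1+ replicates 2 and 3, chosen after seeing the data, has 1 MAC-1+ sample, assumed to vary like the other groups. In MAC-1+ against MAC-1- it put *Tipin* at -1.42 and the members' median at -0.68. It lost calls also in 4 week MAC-1- relative to SS MAC-1- HSCs, a comparison that holds no MAC-1+ sample. Why calls were lost in that fit was not tested. Leaving out each sample in turn gave 3 to 6 in MAC-1+ against MAC-1-, 0 to 1 in MAC-1+ against MAC-1low, in 4 week MAC-1- and in MAC-1+ relative to SS MAC-1- and in the interaction, and 1 to 3 in the joint test.

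The replicate number as a block gave 0 for 4 week MAC-1- and for MAC-1+ relative to SS MAC-1-, and 1 in the joint test. Deviations of samples with the same number correlated at -0.0011 to 0.0397 over 12 pairs and those with other numbers at -0.0260 to 0.0230 over 30. The pairs of 4 week replicate 1 samples, at 0.0255 to 0.0397, lay above all pairs with other numbers. Whether samples were paired cannot be told from these values. Library numbers in the descriptions run in another order for some 4 week samples, and a pairing other than by replicate number was not tested.

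The median log2 fold change of the members kept its sign, at -1.04 to -0.68 in MAC-1+ against MAC-1-, -0.61 to -0.46 in MAC-1low against MAC-1-, 0.55 to 0.98 in 4 week MAC-1- relative to SS MAC-1- HSCs and -0.98 to -0.65 in the interaction over the alternatives and the samples left out in turn. *Lig1* in 4 week MAC-1low against SS MAC-1low changed sign, from -0.96 to 0.032, without SS MAC-1low replicate 2, and ran from -1.35 to 0.032 over the samples left out in turn. With a common biological coefficient of variation of 1.13 and few cells per library, a fold change that edgeR did not call is not shown to be absent, and DESeq2 called some of them.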
